A study of Mus musculus with 20 samples.

Results

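The genes described here are 40 targets of the transcription factor p53 and genes of the DNA damage checkpoint, given as a list of names. For each gene the probe set with the highest mean signal over all 20 arrays was taken, among those with a single gene symbol. Probe sets were found for 39 of the 40 genes, out of 18193 genes named on the array, and 34 of them passed a filter on low signal, out of 11206 genes that did. Trp53 itself had no probe set naming it in the annotation used here and is not analysed here.

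Liver RNA came from male C57BL/6J mice kept free of specific pathogens, 8 weeks old when whole-body irradiation with 137Cs gamma rays began. In experiment 1, irradiation lasted 485 days at 22 h per day, and the low, medium and high groups received 0.042, 0.858 and 16.6 mGy per day, or 20.6, 416 and 8030 mGy in all. In experiment 2 it lasted 401 days at 0.05, 1.00 and 20.0 mGy per day, or 20, 401 and 8015 mGy in all. Each of these 6 groups had 3 mice with 1 array each, and the mice were killed at the end of irradiation. Unirradiated mice were measured as 1 pool of RNA per experiment, from 3 mice in experiment 1 and from 6 in experiment 2, so the controls have no spread of their own within an experiment. The labels carry no genotype other than the strain.

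After DNA damage the kinases ATM and ATR, with CHK1 and CHK2 below them, phosphorylate p53 and loosen its hold by MDM2, and the stabilised p53 then switches on a set of target genes. Some targets halt the cell cycle (Cdkn1a, Ccng1, Gadd45a), some promote cell death (Bbc3, Pmaip1, Fas) and some restrain growth signalling (the sestrins, Ddit4, Phlda3). Others repair DNA or supply nucleotides (Xpc, Rrm2b), and some switch the response off again (Mdm2, Ppm1d). In the liver, whose hepatocytes rarely divide, Cdkn1a and Mdm2 are widely used as readouts of p53 activity after irradiation or genotoxic drugs.

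The p53 protein binds DNA as a tetramer on 2 half-sites of 10 bases each, and the promoters of 4 genes are shown because they carry such letters and because these genes recur in the results. The sequences are RefSeq's for build GRCm38.p6, the 250 bases before the annotated start, 5′ to 3′ on the gene's strand, with half-sites of the p53 consensus in capitals. They lie at chr17:29090729-29090978 on the plus strand for Cdkn1a (the first of its 2 annotated starts), chr11:40755287-40755536 on the minus strand for Ccng1, chr10:117710759-117711008 on the minus strand for Mdm2 and chr3:137623422-137623671 on the plus strand for Ddit4l.
Cdkn1a: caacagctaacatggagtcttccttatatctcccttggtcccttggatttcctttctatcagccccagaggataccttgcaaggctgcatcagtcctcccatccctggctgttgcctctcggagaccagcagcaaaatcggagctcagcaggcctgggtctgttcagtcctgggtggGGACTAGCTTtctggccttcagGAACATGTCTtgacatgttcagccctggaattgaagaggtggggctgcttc
Ccng1: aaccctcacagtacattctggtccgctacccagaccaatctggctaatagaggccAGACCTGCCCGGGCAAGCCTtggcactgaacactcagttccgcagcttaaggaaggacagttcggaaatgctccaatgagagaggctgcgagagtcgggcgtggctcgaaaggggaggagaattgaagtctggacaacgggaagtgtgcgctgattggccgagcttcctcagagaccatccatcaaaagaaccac
Mdm2: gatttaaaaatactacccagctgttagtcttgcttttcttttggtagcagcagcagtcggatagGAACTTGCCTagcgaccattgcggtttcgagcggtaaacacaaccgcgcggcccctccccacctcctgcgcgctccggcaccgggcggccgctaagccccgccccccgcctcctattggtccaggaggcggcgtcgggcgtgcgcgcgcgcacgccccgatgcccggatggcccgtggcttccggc
Ddit4l: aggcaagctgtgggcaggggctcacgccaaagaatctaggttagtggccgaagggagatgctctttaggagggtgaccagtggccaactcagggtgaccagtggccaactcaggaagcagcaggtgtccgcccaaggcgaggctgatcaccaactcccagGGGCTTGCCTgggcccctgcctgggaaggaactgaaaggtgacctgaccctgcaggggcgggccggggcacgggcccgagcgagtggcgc
In Cdkn1a the capitals are 2 half-sites that begin 73 and 51 bases before the start, 12 bases apart. The 10 bases right after the second have 1 mismatch to the half-site consensus and were left in lower case. Capitals mark only exact half-sites and, where it has at most 1 mismatch, the full site with the fewest mismatches. In Ccng1 they are a full site of 2 adjoining half-sites with 1 mismatch, and in Mdm2 and Ddit4l a single half-site that begins 186 and 90 bases before the start. The half-site consensus reads the same on both strands, and it was found in 10 of the 31 genes of the list that had a promoter entry (32.3%), against 8.2% of 27025 genes in the table. These 10 were Aen, Ccng1, Cdkn1a, Ddit4l, Ei24, Gadd45a, Mdm2, Polk, Ppm1d and Sesn1. A full site with no mismatch and at most 13 bases between its half-sites stood in 21 of 32851 promoter entries (0.0639%). The first of the 2 Cdkn1a entries was among them. The second Cdkn1a entry held no half-site, and its best full site had 5 mismatches. A full site with at most 1 mismatch stood in 166 entries (0.505%). The 3 promoter entries of Bbc3 and the one of Phlda3 held no half-site in this window. A match is a description of these letters and is not a measured binding site.

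Signals are the authors' MAS5 intensities on a linear scale, and all differences below are on the scale log2(signal + 7.12). The trimmed mean was 500.0 on every array and the array medians ran from 81.3 to 104.8. Correlations between arrays were 0.909 to 0.943. The tissue label was checked against 8 hepatocyte markers such as Alb, Apoa1 and Ttr. All 8 were on the array, none lay below the array median on every array, and their summed signal was 430680 to 516631 at the high, 443997 to 540460 at the medium and 406254 to 495121 at the low dose-rate, with 422287 and 476228 in the pools. In experiment 2 the high mice, at 430680 to 499016, overlapped the low mice, at 478438 to 495121, whereas in experiment 1 all high mice, at 453317 to 516631, lay above all low mice, at 406254 to 437510. The part of this in the differences given below was not tested. In such bulk samples a smaller number of cells of a type and less RNA per cell cannot be told apart. Gapdh signal at the 3′ end over that at the 5′ end differed between the experiments. The ratios were 0.871 to 0.993 in experiment 2, against 0.69 to 0.769 in experiment 1. Whether this came from RNA quality or from another step of processing was not tested. Within each experiment the ranges of the 3 irradiated levels overlapped. The pool of experiment 1, at 0.69, lay below all irradiated arrays of that experiment, at 0.701 to 0.769. In experiment 2 the pool, at 0.916, lay inside the range of the irradiated arrays.

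High against low dose-rate was the comparison in which most genes of the list stood apart, and none of the 34 tested passed the test over all genes. On the higher side, Cdkn1a, Bbc3, Phlda3, Ddit4l, Ccng1, Gadd45a, Plk2 and Ddit4 each had an unadjusted limma p under 0.05. Plk3, Ppm1d, Sesn2 and Sertad1 had one on the lower side. Together these were 12 of 34 (35.3%), where 10.1% of all 11206 tested genes had such a p. Split by direction, 8 of 34 (23.5%) were higher, against 5.38% of all genes, and 4 of 34 (11.8%) were lower, against 4.68%. After Benjamini-Hochberg adjustment over all genes, 0 of 34 and 0 of 11206 passed (0.0% of all genes), and the smallest adjusted p of the list was 0.194. Over the 34 genes the median difference was 0.086 with 19 higher and 15 lower, beside a median of 0.0036 over all genes tested, of which 50.9% were higher. For Aen, Apaf1, Atr, Btg2, Ddb2, Ercc5, Gadd45b, Mdm4 and Rrm2b at least 1 other probe set, of lower mean signal, gave a high against low difference of the opposite sign. Such a probe set of Gadd45b (-1.01), Atr (1.06) and Ercc5 (0.97) itself had an unadjusted limma p under 0.05. Their mean signals, 72.7, 46.2 and 28.4, were under the filter on low signal, and their adjusted p were 0.562, 0.618 and 0.615.

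**Figure D1:**
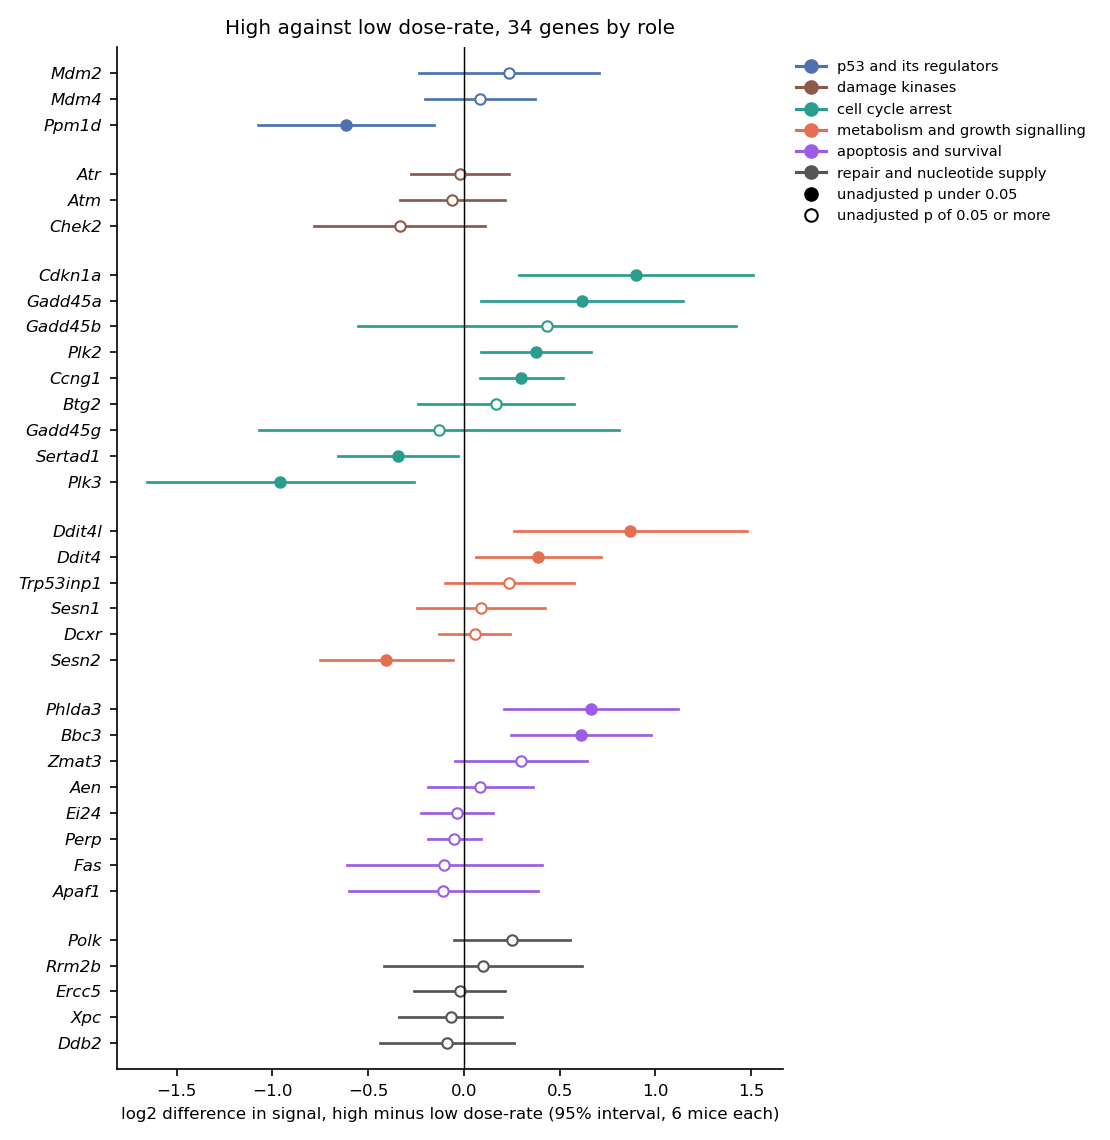
Difference in log2 signal between the high and the low dose-rate for the 34 tested genes, grouped by role, with 95% confidence intervals from limma (6 mice per level, 3 in each experiment). Filled points have an unadjusted p under 0.05. The intervals of 12 genes leave out 0, those of Cdkn1a, Bbc3, Phlda3, Ddit4l, Ccng1, Gadd45a, Plk2 and Ddit4 on the right and those of Plk3, Ppm1d, Sesn2 and Sertad1 on the left.

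The 12 genes were spread over the roles as follows, and no role was tested against another or against the 10.1% of all genes. Of 9 arrest genes, 4 were higher and 2 lower at an unadjusted p under 0.05. Of 6 genes of metabolism and growth signalling, 2 were higher and 1 lower. The 8 tested genes of apoptosis and survival gave 2 higher and 0 lower, and the 3 tested regulators of p53 gave 0 higher and 1 lower. Neither the 3 tested damage kinases nor the 5 genes of repair and nucleotide supply had any at that threshold.

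Among the regulators of p53, Ppm1d encodes the phosphatase WIP1, itself a p53 target, which takes phosphate off p53 and ATM and so ends the damage signal. Its signal in experiment 1 was 182 in the pool, 258, 251 and 232 at the low, 291, 238 and 259 at the medium and 170.4, 79.7 and 157 at the high dose-rate. Experiment 2 gave 136 in the pool, 240.2, 254 and 190.3 at the low, 158, 149.8 and 164 at the medium and 212, 229.7 and 116 at the high dose-rate. In experiment 1 the 3 high mice were below all low and medium mice and below the pool, whereas in experiment 2 the high mice overlapped the low ones. The difference between high and low was -0.61 ± 0.22 (SE, unadjusted p = 0.0113, adjusted p = 0.305), with 5 of 6 high mice below the low mean of their experiment. It was -0.33 in experiment 2 and -0.90 in experiment 1. The other Ppm1d probe set, whose mean signal was 186 against 198.5 for the one used, gave a high minus low difference of -0.26 ± 0.25 (unadjusted p = 0.307). Low mice differed from the pools by 0.56 ± 0.31 (adjusted p = 0.998), and all 6 of them and all 6 medium mice were above the pool of their experiment.

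Mdm2, the ubiquitin ligase that marks p53 for destruction and is switched on by p53, had means of opposite order in the 2 experiments, a difference that did not pass after adjustment. In experiment 2 its signal was 505 in the pool, 699, 827 and 505 at the low, 615, 498 and 527 at the medium and 588, 517 and 445 at the high dose-rate. In experiment 1 it was 488 in the pool, 492, 372 and 346 at the low, 729.8, 255 and 443 at the medium and 795, 555 and 841 at the high dose-rate. The high and low mice overlapped in experiment 2, with the lower mean at the high level, and all 3 high mice of experiment 1 exceeded its 3 low mice. High minus low was -0.37 in experiment 2 and 0.84 in experiment 1, and 0.24 ± 0.23 over both (adjusted p = 0.761). Mdm4, a relative of Mdm2 that blocks the activating domain of p53, averaged 279 ± 32.3 at the high and 321 ± 20.9 at the low dose-rate in experiment 2 (SD, n = 3 each). In experiment 1 it averaged 364 ± 77.2 at the high and 277 ± 25.3 at the low dose-rate.

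Of the damage kinases, Atm senses double-strand breaks and Atr senses stalled replication, and Chek2 acts below Atm. Chek2 read 167 in the experiment 1 pool, 156, 163 and 137 at the low, 146, 110.3 and 109 at the medium and 98.4, 87.6 and 106 at the high dose-rate. Experiment 2 gave 134 in the pool, 125, 60.3 and 115 at the low, 113, 137 and 77.9 at the medium and 103, 94.1 and 78.1 at the high dose-rate. The high mice of experiment 1 lay below all its low and medium mice, those of experiment 2 overlapped both, and all 6 high mice lay below their pool. High minus control was -0.63 ± 0.30 (adjusted p = 0.694) and high minus low was -0.34 ± 0.21 (adjusted p = 0.628). These signals were close to the lower limit of the tested genes, 84.9.

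Atr had its highest mean at the medium dose-rate in both experiments. Its signals in experiment 1 were 343 in the pool, 288, 301 and 292 at the low, 300.3, 418 and 361 at the medium and 234, 311 and 238 at the high dose-rate. In experiment 2 they were 337 in the pool, 284, 327 and 367 at the low, 356, 456 and 352 at the medium and 323, 356 and 396 at the high dose-rate. Neighbouring levels overlapped in both experiments. Medium minus low was 0.26 ± 0.12 (unadjusted p = 0.047, adjusted p = 0.616) and high minus medium was -0.28 ± 0.12 (unadjusted p = 0.0335, adjusted p = 0.999). Both other Atr probe sets, of lower mean signal, gave a high minus medium difference of the opposite sign, and 1 of the 2 did so for medium minus low. Atm ranged over 344 to 530.0 in the 6 high mice and 345 to 539.6 in the 6 low mice, and high minus low was -0.06 ± 0.13.

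Cdkn1a encodes p21, the inhibitor of cyclin-dependent kinases that carries out p53's arrest. Its signal in experiment 1 was 377 in the pool, 552, 228 and 469 at the low, 232, 488 and 229 at the medium and 478, 711 and 367 at the high dose-rate. The experiment 2 arrays read 440.2 in the pool, 149, 208 and 236 at the low, 411, 319 and 564 at the medium and 591, 341 and 783 at the high dose-rate. The levels overlapped throughout experiment 1. In experiment 2 every high and every medium mouse was above all 3 low mice, and the pool lay inside the range of the high mice. Over both experiments Cdkn1a averaged 545 ± 181 at the high and 307 ± 163 at the low dose-rate (SD, n = 6 each). The difference was 0.90 ± 0.29 (SE, unadjusted p = 0.00597, adjusted p = 0.268), 1.44 in experiment 2 and 0.35 in experiment 1, with 5 of 6 high mice above the low mean of their experiment. Its other probe set, of lower mean signal, gave a difference of 1.82 between high and low. Against the pools, high Cdkn1a differed by 0.35 ± 0.42 and low Cdkn1a by -0.55 ± 0.42 (adjusted p = 0.881 and 0.998).

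Ccng1, a p53 target that encodes cyclin G1, had one of the smaller spreads of the list, 0.183 (pooled SD within groups, log2). It read 1932 in the pool of experiment 1, 1823, 1539.9 and 1988 at the low, 1555, 1948 and 1817 at the medium and 1911, 2679 and 2267 at the high dose-rate. Experiment 2 gave 1914 in the pool, 1291, 1428 and 1462 at the low, 1471, 1442 and 1978 at the medium and 1673, 1561 and 1741 at the high dose-rate. All 3 high mice exceeded all 3 low mice in experiment 2, yet the pool there exceeded all 3 high mice. In experiment 1 the high and low mice overlapped. The high mice differed from the low ones by 0.30 ± 0.10 (unadjusted p = 0.00901, adjusted p = 0.294), with 6 of 6 high mice above the low mean of their experiment, and the other 2 probe sets gave 0.34 and 0.24. Low minus control was -0.29 ± 0.15 (adjusted p = 0.998), the smallest p of the list in that contrast.

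**Figure D2:**
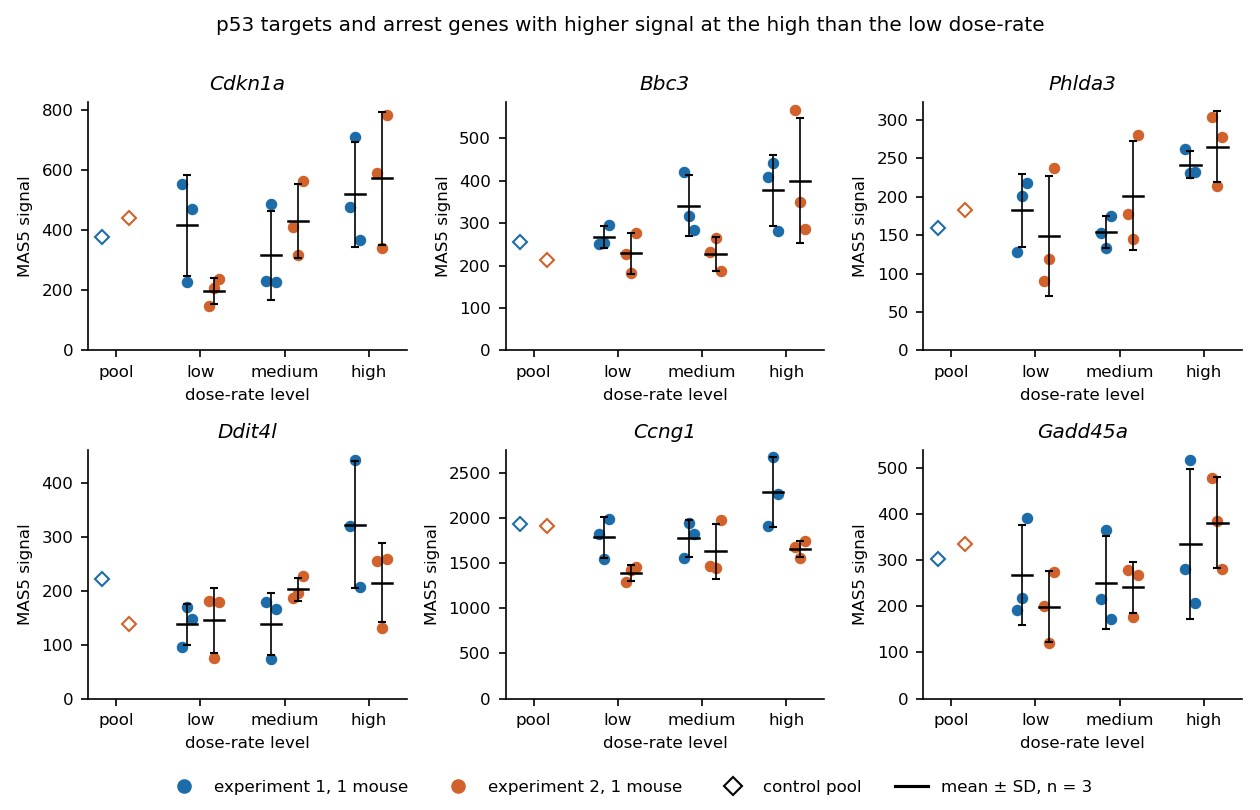
MAS5 signal on a linear axis from 0 for Cdkn1a, Bbc3, Phlda3, Ddit4l, Ccng1 and Gadd45a at each dose-rate level, with the control pool at the left. Dots are single mice, diamonds are pools of unirradiated mice, blue is experiment 1 and orange experiment 2, and bars are means ± SD of 3 mice. The high groups have the highest mean of the 3 irradiated levels in both experiments for all 6 genes, while the spread of single mice is wide.

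Plk2, a polo-like kinase induced by stress, gave the smallest p of the list between high and medium. Its signals were 499 in the experiment 1 pool, 440.0, 401 and 671 at the low, 519, 783 and 506 at the medium and 710.1, 709 and 604 at the high dose-rate. In experiment 2 they were 491 in the pool, 553, 428 and 598 at the low, 429, 463 and 424 at the medium and 613, 630.2 and 697 at the high dose-rate. All 6 high mice were above the pool of their experiment, and in experiment 2 they were also above every low and medium mouse. High minus low was 0.38 ± 0.14, high minus medium 0.37 ± 0.14 and high minus control 0.41 ± 0.20 (adjusted p = 0.318, 0.999 and 0.694 by limma). The other Plk2 probe set, with a mean signal of 21.7, gave a high minus medium difference of the opposite sign.

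Plk3, another polo-like kinase of the stress response, had the lower mean at the high dose-rate and varied more between mice than Plk2, with a pooled SD of 0.713. It read 506 in the experiment 1 pool, 791, 762 and 343 at the low, 441, 177 and 319.7 at the medium and 363, 310.3 and 326 at the high dose-rate. The second experiment gave 1178 in the pool, 1146, 1907 and 581 at the low, 1716, 613 and 654 at the medium and 255, 589 and 839 at the high dose-rate. High and low mice overlapped in both experiments, although all 6 high mice lay below the low mean and below the pool of their experiment. The difference was -0.96 ± 0.34 between high and low (adjusted p = 0.295), -0.65 ± 0.34 between medium and low (adjusted p = 0.658) and -0.91 ± 0.47 between high and control (adjusted p = 0.735).

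Sertad1, a co-regulator that binds CDK4, also had the lower mean at the high dose-rate. Its experiment 1 signals were 516 in the pool, 553, 768 and 429 at the low, 598, 513 and 522 at the medium and 354, 559 and 435 at the high dose-rate. The experiment 2 signals were 430.0 in the pool, 594, 559.9 and 447 at the low, 478, 347 and 378 at the medium and 327, 434 and 523 at the high dose-rate. High minus low was -0.34 ± 0.15 (adjusted p = 0.443) with all 6 high mice below the low mean of their experiment, and medium minus low was -0.24 ± 0.15 (adjusted p = 0.72).

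The stress genes of the Gadd45 family, which bind cyclin-dependent kinase and MAP kinase partners, differed among themselves. Gadd45a averaged 358 ± 123 at the high and 233 ± 92.2 at the low dose-rate (SD, n = 6 each), a difference of 0.62 ± 0.25 (unadjusted p = 0.0235, adjusted p = 0.4). In experiment 2 its 3 high mice, 478, 385 and 280.4, were above its 3 low mice, 201, 121 and 275, and the levels overlapped in experiment 1. Gadd45b differed by 0.43 ± 0.47 and Gadd45g by -0.13 ± 0.45 (adjusted p = 0.789 and 0.942), and these 2 had the widest spreads of the list, 0.876 and 0.905. Medium mouse 1 of experiment 2 had a Gadd45g signal of 2929, against 383 and 416 in the other two. Btg2, an antiproliferative p53 target, was above the pool of its experiment in all 6 high mice, with a difference from control of 0.46 ± 0.28 (adjusted p = 0.761) and from low of 0.17 ± 0.20.

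Among the genes that restrain growth signalling, Ddit4l and Ddit4 encode the related inhibitors of mTORC1 called REDD2 and REDD1. Ddit4l read 221 in the pool of experiment 1, 95.2, 169.8 and 148 at the low, 178, 72.9 and 166 at the medium and 319, 442 and 206 at the high dose-rate. For experiment 2 the signals were 139 in the pool, 181, 75.6 and 179.6 at the low, 186, 196 and 226 at the medium and 254, 132 and 259 at the high dose-rate. All 3 high mice of experiment 1 exceeded its low and medium mice, and 1 of the 3 was below the pool. In experiment 2 the high and low mice overlapped. Between high and low the difference was 0.87 ± 0.29 (unadjusted p = 0.00719, adjusted p = 0.283) and high minus medium 0.61 ± 0.29 (unadjusted p = 0.0478, adjusted p = 0.999).

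Ddit4 had the higher mean at the high dose-rate in both experiments. Its signals were 419 in the experiment 1 pool, 346, 268 and 511 at the low, 476, 342 and 313 at the medium and 432, 636 and 509.6 at the high dose-rate. Experiment 2 gave 562 in the pool, 574, 446 and 652 at the low, 626, 616 and 594 at the medium and 815, 511 and 699 at the high dose-rate. High and low mice overlapped in each experiment, and the difference was 0.39 ± 0.16 (unadjusted p = 0.0219, adjusted p = 0.392).

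Sesn2 and Sesn1 encode sestrins, which hold mTORC1 in check when nutrients are short or DNA is damaged. Sesn2 read 196 in the pool of experiment 1, 243, 391 and 384 at the low, 252, 246 and 279 at the medium and 206, 189 and 343 at the high dose-rate. In experiment 2 it read 322 in the pool, 321, 286 and 452 at the low, 377, 367 and 279 at the medium and 233, 304 and 288 at the high dose-rate. Sesn2 differed by -0.40 ± 0.17 between high and low (unadjusted p = 0.0245, adjusted p = 0.401), with 5 of 6 high mice below the low mean of their experiment and overlap in both, while the other Sesn2 probe set gave -0.01. Sesn1 gave 0.09 ± 0.16 in the same comparison.

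Trp53inp1, a nuclear stress protein that assists p53 and takes part in autophagy, gave the smallest p of the list between medium and control. Its signals were 3131 in the experiment 1 pool, 3412, 2561 and 4936 at the low, 3456, 4479.9 and 3178 at the medium and 3838, 4789 and 4427 at the high dose-rate. The experiment 2 arrays gave 2859 in the pool, 2665, 3433 and 3193 at the low, 4359, 2946 and 5028 at the medium and 2473, 3963 and 4254 at the high dose-rate. All 6 medium mice were above their pool, medium minus control was 0.36 ± 0.23 (adjusted p = 0.86) and high minus control was 0.37 ± 0.23 (adjusted p = 0.765). Dcxr, a reductase of sugars and dicarbonyls that is high in liver, gave 0.06 ± 0.09 between high and low and had a pooled SD of 0.157.

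Bbc3 encodes PUMA, a protein that frees the mitochondrial death pathway and is a direct p53 target. It had the smallest p of the list between high and low, between high and control and over the dose-rate trend. Its signals were 255 in the experiment 1 pool, 250, 253 and 296 at the low, 421, 318 and 284 at the medium and 408, 442 and 282 at the high dose-rate. Experiment 2 gave 213 in the pool, 227, 182 and 277 at the low, 231, 264 and 186 at the medium and 566, 349 and 286 at the high dose-rate. All 6 high mice were above the pool and above the low mean of their experiment, and in experiment 2 they were above every low and medium mouse. In experiment 1 the high and low mice overlapped. High minus low was 0.61 ± 0.18 (unadjusted p = 0.00228, adjusted p = 0.194), high minus medium 0.45 ± 0.18 (adjusted p = 0.999) and high minus control 0.68 ± 0.25 (unadjusted p = 0.0126, adjusted p = 0.525). With each array weighted by its number of mice, the difference from control was also 0.68 and passed with an adjusted p of 0.0249, in a fit that called 374 genes in all. In the other alternatives it did not pass.

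Phlda3, which competes with AKT for membrane lipid and so dampens survival signalling, was similar in size. It read 159.7 in the pool of experiment 1, 128, 200.4 and 218 at the low, 153, 134 and 175 at the medium and 262, 231 and 232 at the high dose-rate. The signals in experiment 2 were 182 in the pool, 90.6, 119 and 238 at the low, 178, 146 and 281 at the medium and 304, 214 and 277 at the high dose-rate. All 6 high mice were above their pool. The high mice of experiment 1 were above all its low and medium mice, and those of experiment 2 overlapped both. High minus low was 0.66 ± 0.22 (unadjusted p = 0.00642, adjusted p = 0.27), high minus medium 0.53 ± 0.22 (adjusted p = 0.999) and high minus control 0.54 ± 0.31 (adjusted p = 0.75).

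Fas, the death receptor, and Perp, a membrane protein of desmosomes that p53 switches on, had small differences over both experiments and opposite ones within them. Fas read 943 in the pool of experiment 2, 867, 592 and 881 at the low, 805, 815 and 798 at the medium and 328, 476 and 786 at the high dose-rate. In experiment 1 Fas read 1043 in the pool, 1260.2, 728 and 579 at the low, 606, 1241 and 675 at the medium and 867, 1156 and 1262 at the high dose-rate. High and low mice overlapped in both experiments, with the mean of the high level below that of the low level in experiment 2 and above it in experiment 1. Perp read 4659 in the experiment 2 pool, 4532, 4368 and 4694 at the low, 4176, 4843 and 5026 at the medium and 5007, 4766 and 4706 at the high dose-rate. Its experiment 1 signals were 4946 in the pool, 4608, 4988 and 4852 at the low, 4925, 4728 and 4797 at the medium and 4152, 4465 and 4050.2 at the high dose-rate. The 3 high mice were above all low mice in experiment 2 and below all low mice in experiment 1, and Perp had the smallest pooled SD of the list, 0.0757.

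**Figure D3:**
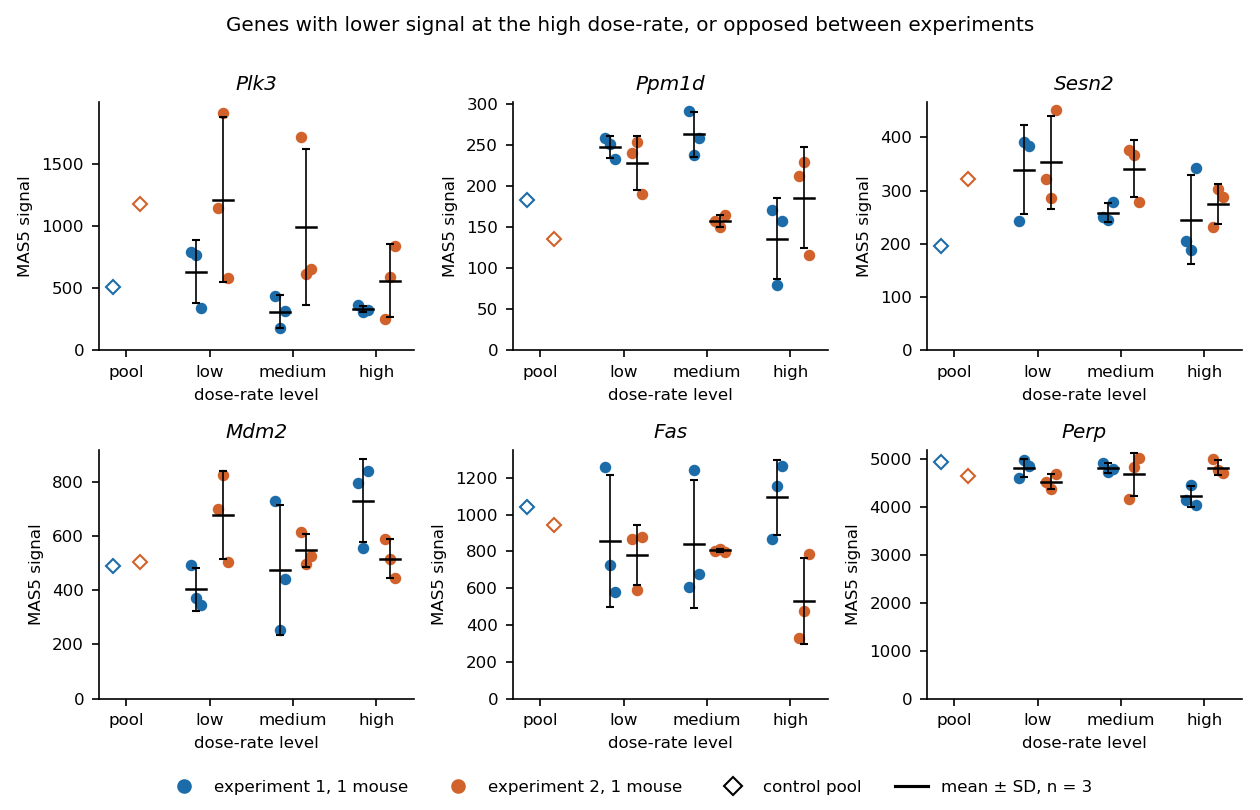
MAS5 signal on a linear axis from 0 for Plk3, Ppm1d, Sesn2, Mdm2, Fas and Perp at each dose-rate level, with the control pool at the left. Dots are single mice, diamonds are pools, blue is experiment 1 and orange experiment 2, and bars are means ± SD of 3 mice. The high group has a lower mean than the low group in both experiments for Plk3, Ppm1d and Sesn2, while Mdm2 and Fas at the high dose-rate lie below the low level in experiment 2 and above it in experiment 1, and Perp the other way round.

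The other tested genes of apoptosis and survival were Zmat3, an RNA-binding zinc finger protein, Aen, a nuclease, Ei24, a protein of the endoplasmic reticulum, and Apaf1, the scaffold of the apoptosome. The difference between high and low was 0.30 ± 0.17 for Zmat3, 0.09 ± 0.13 for Aen, -0.04 ± 0.09 for Ei24 and -0.11 ± 0.24 for Apaf1, with adjusted p from 0.569 to 0.914.

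None of the 5 genes of repair and nucleotide supply had an unadjusted p under 0.05 between high and low. The difference was -0.07 ± 0.13 for Xpc and -0.09 ± 0.17 for Ddb2, which recognise lesions for nucleotide excision repair, and -0.02 ± 0.12 for Ercc5, which cuts beside them. It was 0.10 ± 0.25 for Rrm2b, the ribonucleotide reductase subunit that p53 induces, and 0.25 ± 0.15 for Polk, a polymerase that copies past damaged bases. The smallest adjusted p of the 5 was 0.593, for Polk. Next to Trp53inp1, the smallest p of the list between medium and control were those of Ercc5 and Xpc, at 0.23 ± 0.16 and -0.24 ± 0.18 (adjusted p = 0.88 and 0.896). The other Ercc5 probe set, with a mean signal of 28.4, gave a medium minus control difference of the opposite sign.

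Contrasts with the unirradiated pools rest on 2 control arrays, which the 3 of them share. Between high and control, 1 of 34 genes (2.94%), Bbc3, had an unadjusted p under 0.05, where 7.24% of all genes did. None of the 34 had one between medium and control or between low and control, where 6.05% and 3.87% of all genes did. After adjustment 0 of 34 passed in each, where 9, 4 and 1 of 11206 genes did (0.0803%, 0.0357% and 0.00892%). The count between high and control was 0 without the pool of experiment 1 (all genes 3.33%) or of experiment 2 (7.59%). Without high mouse 1 of experiment 2 it was 4 of 34 (11.8%, all genes 6.32%), so that the list stood above all genes. It was 2 without low mouse 1, 2 or 3, medium mouse 2 or high mouse 3 of experiment 1, or low mouse 2 or 3 or medium mouse 1 or 3 of experiment 2. Those counts of 2 were 5.88% of the list, where 6.99% to 7.59% of all genes had such a p. Leaving out 1 array at a time gave 0 in each case between medium and control (all genes 3.19% to 6.84%). Between low and control it gave 0 to 2 (all genes 2.62% to 4.52%). The place of the list beside all genes also turned with the model. Between high and control it was 6 of 34 (17.6%, all genes 7.92%) with only these 2 levels fitted, 8 of 34 (23.5%, all genes 20.0%) with arrays weighted by number of mice, 3 of 34 (8.82%, all genes 7.59%) with median-centred arrays and 2 of 34 (5.88%, all genes 5.1%) in experiment 2 fitted alone. Between low and control it was 5 of 34 with the weights (14.7%, all genes 13.2%), 2 of 34 in experiment 2 fitted alone (5.88%, all genes 3.13%), 2 without high mouse 2 of experiment 1 (5.88%, all genes 3.93%) and 1 without the pool of experiment 1 (2.94%, all genes 2.62%). Median differences from control over the 34 genes were 0.015 for high, -0.019 for medium and -0.039 for low, beside medians over all genes of 0.0074, 0.011 and 0.00034.

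Between high and medium, 5 of 34 genes (14.7%) had an unadjusted p under 0.05, where 3.78% of all genes did. Plk2, Ddit4l, Bbc3 and Phlda3 were higher (1.76% of all genes were higher with such a p) and Atr was lower (2.03%), and 0 passed after adjustment, as did 0 of all genes (0.0%). This count was 9 of 34 without high mouse 2 of experiment 2 (26.5%, all genes 4.02%). It was 3 of 34 (8.82%) without medium mouse 2 (all genes 3.85%) or 3 of experiment 1 (4.46%). Leaving out medium mouse 2 of experiment 2 also gave 3 (all genes 3.53%). Between medium and low the count was 1 of 34 (2.94%), Atr, where 7.95% of all genes had such a p. It was 3 of 34 without low mouse 3 of experiment 1 (8.82%, all genes 9.69%). Without low mouse 3 (all genes 8.84%) or medium mouse 1 of experiment 2 (7.61%) it was 2 of 34 (5.88%). It was 0 without any 1 of 7 other arrays (all genes 6.22% to 8.76%).

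Over the 18 irradiated arrays, a trend on the logarithm of dose-rate gave 12 of 34 genes with an unadjusted p under 0.05 (35.3%), where 9.95% of all genes did, and these were the 12 named between high and low, on largely the same arrays. The largest slope with such a p was that of Plk3, -0.37 ± 0.13 per 10-fold of dose-rate (adjusted p = 0.31). Slopes were 0.35 ± 0.11 for Cdkn1a, 0.33 ± 0.11 for Ddit4l and 0.23 ± 0.07 for Bbc3 (adjusted p = 0.27, 0.283 and 0.219). After adjustment 0 of 34 genes and 0 of all genes passed (0.0%).

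**Figure D4:**
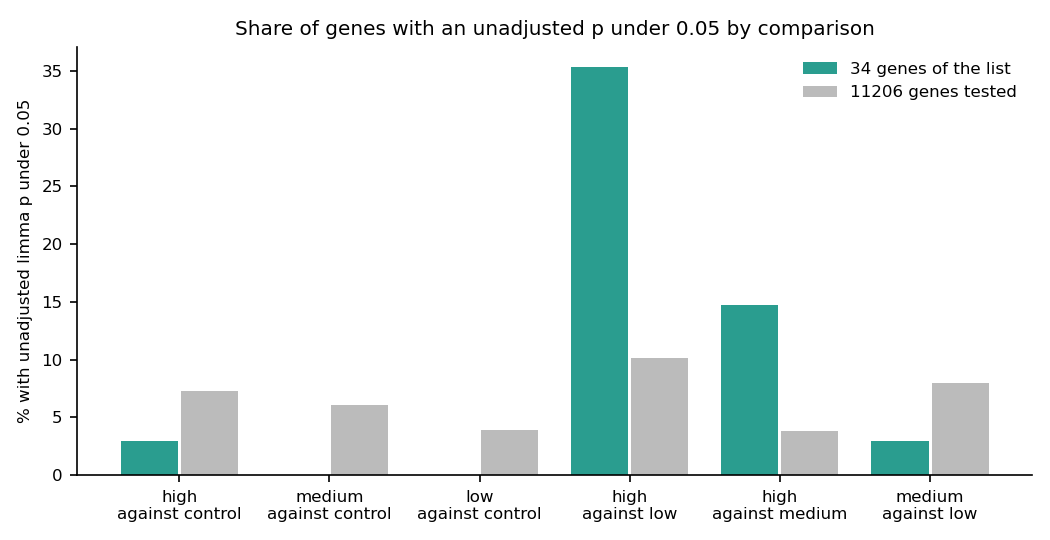
Share of genes with an unadjusted limma p under 0.05 in each of the 6 comparisons between levels, for the 34 tested genes of the list (green) and all 11206 tested genes (grey), in percent on an axis from 0. The list stands at 35.3% against 10.1% between high and low and at 14.7% against 3.78% between high and medium, and below all genes in the other 4 comparisons, an order that turned round under some alternatives for high and for low against control.

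The experiments share no arrays, and high against low was computed within each, from a fit of the 8 group means that takes the spread between mice from both. In experiment 1, 8 of 34 genes had an unadjusted p under 0.05, where 8.75% of all genes did. Ddit4l (1.16), Mdm2 (0.84), Ddit4 (0.51), Plk2 (0.45), Polk (0.44) and Ccng1 (0.35) were higher, and Ppm1d (-0.90) and Perp (-0.19) were lower. In experiment 2 there were 5 of 34, where 8.7% of all genes had such a p. These were Cdkn1a (1.44), Gadd45a (0.95), Phlda3 (0.90) and Bbc3 (0.75), which were higher, and Plk3 (-1.10), which was lower. No gene had such a p in both. The sign of the difference was the same in both experiments for 20 of 34 genes (58.8%), where it was for 54.3% of all genes.

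The ranges of single mice were compared as well. In experiment 1 the 3 high and 3 low mice did not overlap for 8 genes (Mdm2, Ppm1d, Chek2, Gadd45g, Ddit4l, Perp, Phlda3 and Polk), and 11.6% of all genes were so. In experiment 2 they did not overlap for 7 genes (Cdkn1a, Ccng1, Gadd45a, Plk2, Bbc3, Perp and Aen), where 15.4% of all genes were so. Perp alone was on both lists, in opposite directions, and 1.23% of all genes were separated in the same direction in both.

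**Figure D5:**
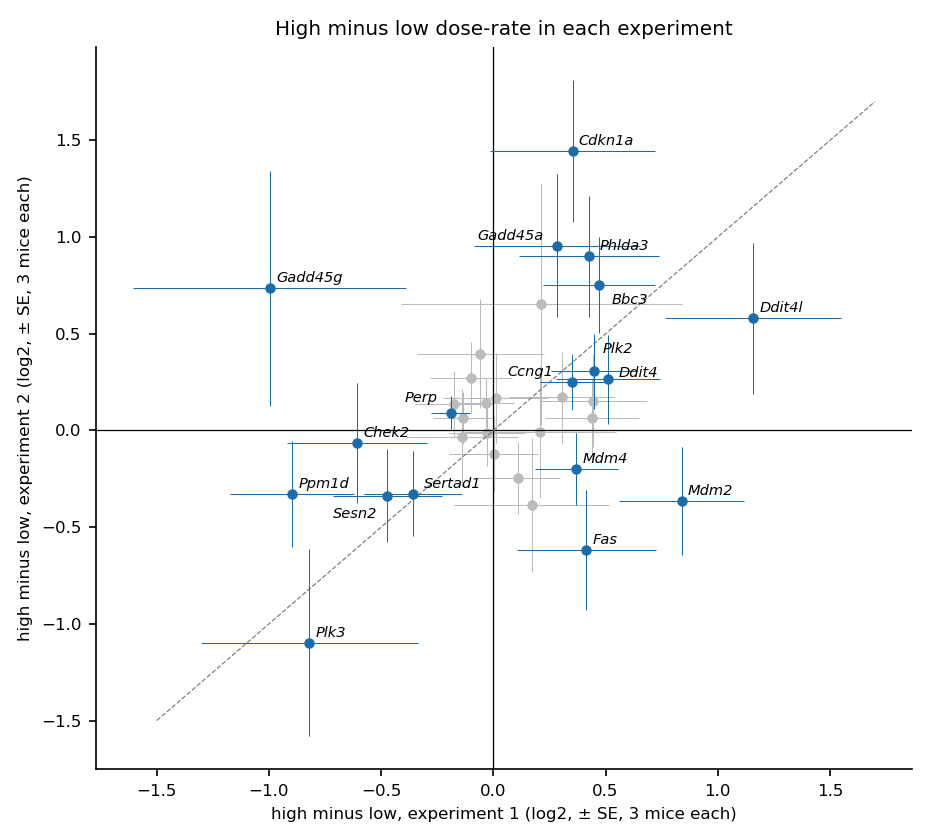
High minus low difference in log2 signal in experiment 1 (horizontal) and experiment 2 (vertical) for the 34 tested genes, ± SE from limma with 3 mice per level in each experiment. The dashed line marks equal differences, blue points carry names and grey points are the other genes. Cdkn1a lies at 1.44 in experiment 2 and 0.35 in experiment 1, Mdm2 at -0.37 and 0.84, and Plk3 at -1.10 and -0.82.

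The difference between the experiments was tested as an interaction. An unadjusted p under 0.05 was found for 4 of 34 genes (11.8%), where 7.07% of all genes did, and 0 of 34 and 0 of all genes (0.0%) passed after adjustment. Experiment 2 minus experiment 1 in the high against low difference was -1.21 ± 0.39 for Mdm2 (unadjusted p = 0.00679, adjusted p = 0.588), -1.03 ± 0.44 for Fas (adjusted p = 0.69), -0.57 ± 0.26 for Mdm4 (adjusted p = 0.693) and 0.28 ± 0.12 for Perp (adjusted p = 0.691). For Cdkn1a it was 1.09 ± 0.52 (adjusted p = 0.702). Of the 3 other Mdm4 probe sets, 2 gave a value of the opposite sign. The count was 1 of 34 without high mouse 3 of experiment 1 (2.94%, all genes 5.5%). It was 2 of 34 (5.88%) without low mouse 2 (all genes 8.31%) or high mouse 1 of experiment 1 (9.36%). Leaving out low mouse 1 of experiment 2 also gave 2 (all genes 6.16%). In these fits the list lay below all genes, and in the other fits without 1 array it lay above them.

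Between the experiments themselves 9 of 34 genes passed after adjustment (26.5%), where 42.7% of all genes did. The experiments differ in length of irradiation, in age at death and in any step of processing, and these cannot be told apart. Higher in experiment 2 were Plk3 by 1.03 ± 0.26, Ercc5 by 0.55 ± 0.09, Ddit4 by 0.54 ± 0.12, Xpc by 0.37 ± 0.10, Sesn1 by 0.36 ± 0.12, Polk by 0.33 ± 0.11 and Ei24 by 0.31 ± 0.07, with adjusted p from 3.73e-05 to 0.0243. Lower were Btg2, which fell by 0.67 (adjusted p = 0.00115), and Ccng1, which fell by 0.28 (adjusted p = 0.00801).

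The clearest of these was Ercc5. Its signals in experiment 2 were 532 in the pool, 521, 567 and 494 at the low, 519.5, 639 and 527 at the medium and 600.1, 552 and 427 at the high dose-rate. In experiment 1 they were 312 in the pool, 418, 336 and 314 at the low, 412, 461 and 363 at the medium and 282, 388 and 378 at the high dose-rate. All but 1 of the 10 experiment 2 arrays lay above all 10 of experiment 1.

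Xpc, which recognises bulky lesions, read 703 in the experiment 2 pool, 763, 536 and 604 at the low, 554, 436 and 724 at the medium and 584, 535 and 471 at the high dose-rate. Experiment 1 gave 474 in the pool, 389, 404 and 550.2 at the low, 397, 428 and 452 at the medium and 431, 538 and 469.6 at the high dose-rate. These overlapped. Polk, the bypass polymerase, read 235 in the experiment 2 pool, 256, 325 and 261 at the low, 234, 378 and 274 at the medium and 239.9, 345 and 299 at the high dose-rate. In the first experiment it read 198 in the pool, 196, 197 and 206 at the low, 166, 202 and 262 at the medium and 254, 296 and 273 at the high dose-rate. Within experiment 1 its 3 high mice were above all 3 low mice, and within experiment 2 they were not.

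Sesn1 read 673 in the experiment 2 pool, 555, 425 and 456 at the low, 463, 532 and 575 at the medium and 646, 594 and 399 at the high dose-rate. For experiment 1 the values were 397 in the pool, 381, 587 and 345 at the low, 489.7, 324 and 323 at the medium and 449, 331 and 532 at the high dose-rate. The 2 pools stood further apart than the group means of any irradiated level. Ei24 read 9408 in the experiment 2 pool, 8799, 8319 and 9162 at the low, 8641, 8307 and 8960.3 at the medium and 9091, 8196 and 10291 at the high dose-rate. The experiment 1 values of Ei24 were 7445 in the pool, 9166, 6629 and 7171 at the low, 8035, 7033 and 5902 at the medium and 7883, 6838 and 6090.2 at the high dose-rate. The dose levels of Ei24 overlapped within both experiments. Btg2 read 321 in the experiment 2 pool, 234, 309 and 478 at the low, 515, 218 and 273 at the medium and 489, 365 and 451 at the high dose-rate, and 413, 655, 434 and 785, 553, 527 and 586 and 624, 644 and 491 in the same groups of experiment 1.

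The other 5 genes were below the filter and are given by level alone, with no fold or test. Eda2r, a receptor of the tumour necrosis factor family and a p53 target, averaged 67.1 over all arrays against a limit of 84.9. It read 109 in the pool of experiment 1, 105, 92.9 and 69.7 at the low, 79.8, 72.4 and 54.3 at the medium and 70.9, 151 and 73.8 at the high dose-rate. Experiment 2 gave 53.4 in the pool, 73.6, 60.4 and 47.4 at the low, 34.2, 67.0 and 6.5 at the medium and 5.6, 48.9 and 65.6 at the high dose-rate. The levels overlapped in both experiments. Mean signals were 60.2 for Chek1, the kinase below Atr, 46.2 for Pmaip1, which encodes the death protein NOXA, 25.4 for Cdkn2a, which encodes the senescence markers p16 and p19, and 18.5 for Tnfrsf10b, the TRAIL receptor. The nearest gene above the limit was Chek2 with a mean of 115.8. All 34 tested genes but Gadd45b, at 76.4 in the experiment 2 pool, had every group mean above the limit.

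Other p53 targets and other checkpoint genes, from lists written beside the 40, were counted in the same way. Of 30 further p53 targets 20 were tested, and between high and low 4 were higher and 0 lower at an unadjusted p under 0.05, where 5.38% of all genes were higher and 4.68% lower, with 0 after adjustment. Dglucy, a mitochondrial D-glutamate cyclase, averaged 1208 at the high and 887 at the low dose-rate, a difference of 0.46 ± 0.16 (adjusted p = 0.294), and Pml, the scaffold of nuclear bodies, differed by 0.27 ± 0.12 (adjusted p = 0.462). Between high and control, Cdc42bpg, a kinase, differed by 0.44 ± 0.20 and Abhd4, a lipase, by 0.26 ± 0.14 (adjusted p = 0.669 and 0.737). Of 29 further checkpoint genes 21 were tested, and between high and low 4 were higher and 1 lower at an unadjusted p under 0.05, beside the same 5.38% and 4.68% of all genes, with 0 after adjustment.

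Rnf8, a ubiquitin ligase at double-strand breaks, differed by -0.29 ± 0.11 and Hus1, part of the sliding clamp that helps activate ATR, by 0.39 ± 0.16 between high and low (adjusted p = 0.309 and 0.372). Rad9a, of the same clamp, had a slope of 0.21 ± 0.08 over dose-rate (adjusted p = 0.376). Rad17, which loads that clamp, differed by -0.28 ± 0.11 from control at the high dose-rate, and Tipin, which guards replication forks, by 0.36 ± 0.14 (adjusted p = 0.564 and 0.571).

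A list of 14 genes of the circadian clock and of the glucocorticoid response was chosen with earlier results of these data known. Its counts are therefore no test against all genes. Of these 14 genes, 3 were lower after adjustment between high and control (0.0803% of all genes passed) and 1 between medium and control (0.0357%). Between low and control and between irradiated levels 0 passed. Between high and low, 3 were higher and 4 lower at an unadjusted p under 0.05 (5.38% and 4.68% of all genes). Their summed signal was 15907 and 20444 in the pools, 11638 to 14846 at the low, 11042 to 13859 at the medium and 10458 to 12086 at the high dose-rate, so that every irradiated mouse lay below both pools. Within each experiment all high mice lay below all low mice, at 11623 to 12086 against 13323 to 14846 in experiment 2 and at 10458 to 11469 against 11638 to 12211 in experiment 1. Usp2 fell by 2.26 on the log2 scale between high and control (adjusted p = 0.00836) and Dbp fell by 1.84 (adjusted p = 0.0259), both outputs of the clock. Between high and low, Per1 differed by -1.37 ± 0.38 (adjusted p = 0.188) and the heat shock gene Hspa1b by -1.87 ± 0.41 (adjusted p = 0.118). No label gives the hour of death, and the part of these genes in the differences of Cdkn1a, Ddit4, Plk3 and the others was not tested.

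Summed markers of Kupffer cells and macrophages, endothelial cells, and stellate cells and fibroblasts overlapped between high and low in each experiment. Summed signals at the high and the low dose-rate were 15458 to 22476 and 18484 to 23929 for Kupffer cells and macrophages, 7085 to 9240 and 6920 to 8708 for endothelial cells, and 15634 to 21081 and 11678 to 21628 for stellate cells and fibroblasts. Erythroid markers, 2 on the array, summed to 2638 to 3532 at the high and 3678 to 4388 at the low dose-rate in experiment 2, without overlap, and to 2008 to 3595 and 3213 to 4343 in experiment 1, with overlap. B cell markers, 4 on the array, summed to 342 to 852 at the high and 236 to 460.0 at the low dose-rate in experiment 2, with overlap, and to 263 to 409 and 444 to 466 in experiment 1, without it. Summed markers of T and NK cells, cholangiocytes, neutrophils and pancreatic acinar cells overlapped between high and low in both experiments. Of the tested markers, 0 of 2 for B cells and 1 of 1 for erythroid cells had an unadjusted p under 0.05 between high and low, and neither list had one after adjustment. Their part in the differences above was not tested.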

How the data were processed

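Expression was measured in 20 liver samples on single-colour Affymetrix arrays. What the authors deposited is an intensity per probe set on a linear scale, computed with MAS5 per the submitters' processing notes, which name no version. Of 45101 probe sets, 34945 carried 1 gene symbol in the platform annotation, 932 several and 9160 none, and 64 were array controls.

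For this work signals were transformed as log2(signal + 7.12), the 10th percentile of all signals. Differences of weakly expressed genes are understated on that scale. The probe set with the highest mean was taken for each gene, and genes with a mean of at least 84.9, the median of probe set means, were tested. Tests were run with limma 3.58.1 in R 4.3.3, as lmFit followed by eBayes with its trend option, with dose level and experiment as terms on all 20 arrays, two-sided, with Benjamini-Hochberg adjustment over 11206 genes at 0.05. The trend used the logarithm of dose-rate on the 18 irradiated arrays, and the interaction used 8 group means. Each p-value reflects only how these samples vary, and the number of arrays, above all the 2 pools, limits the precision. The main fits of high against low, high against control, medium against low, the trend and the interaction were also run on simulated data. The other steps were not.

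Values on every array are given for Cdkn1a, Mdm2, Ccng1, Phlda3 and Eda2r, for genes past the threshold and for the 3 smallest p in each contrast; of the further lists, the 2 smallest p in high against control, high against low and the trend. Genes of the clock and heat shock lists and Gadd45a were chosen after their values were seen. The 40 genes, the lists and the tests were chosen with earlier results of these data known. Alternatives were other pseudocounts, filters, probe set choices, normalizations, weights and model terms, single experiments, a replicate block and leaving out each array.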

Additional observations from a re-analysis of the deposited data

How the results depend on the processing

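Of 249 recomputed counts of genes past the adjusted threshold, over 8 comparisons, 248 stayed at 0. The other came from weighting each array by its number of mice, which gave 1 gene, Bbc3, between high and control. Leaving out each array in turn gave 0 to 0 genes of the list in all 8. Of 1028 recomputed differences of single genes 0 reversed, 1027 stayed on the same side of the threshold and 1, that of Bbc3, passed it. They covered only 33 pairs of gene and comparison, picked for a small p in these same data. Most refits left out a single array, so the kept signs are no test of the list. Counts at an unadjusted p under 0.05 between high and low were 9 to 13 of 34 without single arrays. These were 26.5% to 38.2% of the list, where 8.17% to 12.5% of all genes had such a p. With no filter the count was 13 of 39 (33.3%, all genes 8.22%). It was 6 of 34 (17.6%, all genes 7.05%) with experiment 1 fitted alone. With experiment 2 fitted alone it was 5 of 34 (14.7%, all genes 10.2%). Over all genes, the number past the adjusted threshold between high and control was 9 and ran over the alternatives between 0 and 374, between medium and control 4 with 0 to 267, and between low and control 1 with 0 to 46. Between high and low it was 0, and 20 without low mouse 3 of experiment 2. The cause was not tested. A replicate block over the irradiated arrays gave 0 genes of the list past the adjusted threshold in each comparison. Between high and low it gave 12 of 34 at an unadjusted p under 0.05 (35.3%, all genes 11.6%). Same-numbered mice are different animals and the main fits did not pair them. Of 18 same-numbered pairs, 7 had a correlation of deviations over 0.1 (range -0.154 to 0.307), and 11 of 18 correlated best with their own number. Whether same-numbered mice shared a step of processing was not tested. No paired analysis was possible because the pools carry no replicate number, for contrasts with control. Of the tested genes, Chek2, Gadd45b and Apaf1 had mean signals nearest above the filter. Signal over background was not analysed here.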
